A study of Mus musculus with 18 samples.

Results

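The genes described here encode the subunits, activators, inhibitor and dedicated assembly factors of the mouse proteasome. They were taken by name, as every gene of the deposited tables whose whole mouse symbol is Psma, Psmb, Psmc, Psmd, Psme, Psmf or Psmg followed by a number. Of the 48 such symbols in the annotation, 46 had a row in at least 1 table. The table of embryonic stem cells (ESCs) held 45 of them among 13104 genes, and the table of epiblast-like cells (EpiLCs) held 46 among 13717. Psmb8 and the thymus subunit gene Psmb11 had no row in either table, and Psmb9 had a row in EpiLCs only. Because low-count genes had been removed upstream, a missing row gives no level. Psmc3ip, a recombination factor, and Psme2b, a retrocopy of Psme2, begin with the same letters and were left out.

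The proteasome is the protease that degrades proteins tagged with ubiquitin. Its core is a stack of rings in which alpha subunits form the gate and beta subunits hold the cutting sites. A regulatory particle caps the core, with a base that unfolds substrates with ATPases and a lid that removes ubiquitin. The particle holds its subunits in fixed proportions, and transcription factors of the Nfe2l family are known to raise their genes together when proteasome activity is limiting. Pluripotent stem cells are known for high proteasome activity.

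RNA was measured in 12 libraries from mouse ESCs that carry fluorescent reporters of the germline genes Blimp1 and Stella, and from EpiLCs derived from such ESCs, a culture model of the epiblast around implantation. ESCs were kept with 2 kinase inhibitors and LIF, and EpiLCs were induced with activin A, bFGF and knockout serum replacement. In each cell type, 3 cultures received the cannabinoid Δ9-THC at 100 nM and 3 received the ethanol vehicle, with EpiLCs exposed since the ESC stage. The study describes its ESC data as from female cells and also used a male reporter clone, and the clone of each library is not given in the sources used here. The comparison asked whether the exposure changed transcription in either pluripotent state. Library totals ranged from 23427551 to 32096698 adjusted counts, and no member had fewer than 93 counts in any library of a table that held it, so the spread between libraries, not counting error, set the precision for most of them.

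The labels matched the markers. The summed level of 8 naive pluripotency genes was 4348 to 4650 counts per 1000000 (CPM) in ESC vehicle libraries and 309 to 338 in EpiLC vehicle libraries, and that of the EpiLC genes was 159 to 172 and 1741 to 2072 CPM. Of 6 primitive endoderm genes, 1 had a row in ESCs and 2 in EpiLCs, with Gata6, Sox17, Sox7 and Pdgfra in neither table. Of 5 fibroblast genes, 2 and 4 had a row, and their sum was at most 7.39 CPM in ESC and 19.4 CPM in EpiLC libraries. The counts had been adjusted for batches that are not named, and after this adjustment a vehicle library and the Δ9-THC library of the same number deviated from their group means in opposite directions. The libraries of a table are therefore not independent, while the tests treat them as if they were, so all p-values and SDs below are those of the adjusted counts and are uncertain to an extent that was not measured.

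Sequence upstream of the genes was taken from RefSeq on GRCm38.p6, in windows from 250 bases before to 50 bases after the start site. Windows were found for 38 of the 46 members. The motif TGACNNNGC is the core of the antioxidant response element, the kind of site through which Nfe2l factors are known to act on proteasome genes. Searched on both strands, it occurred in the windows of 6 members, which are shown because they are the members with a candidate site for that regulation. The lines give the strand on which the motif reads, with the matched bases in capitals.
Psmb5, chr14:54618024-54618052, minus strand: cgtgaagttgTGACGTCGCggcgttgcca
Psmb6, chr11:70525338-70525366, plus strand: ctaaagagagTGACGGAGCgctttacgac
Psmc6, chr14:45329587-45329615, minus strand: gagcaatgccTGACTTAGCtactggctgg
Psmd12, chr11:107479278-107479299, minus strand: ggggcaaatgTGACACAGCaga
Psmd9, chr5:123228149-123228177, plus strand: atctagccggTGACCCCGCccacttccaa
Psme4, chr11:30771758-30771786, minus strand: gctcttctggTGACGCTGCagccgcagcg
Counted in bases from the start site to the upstream end of the match, it lay at -7 in Psme4, -9 in Psmb6, -31 in Psmd9, -47 in Psmb5, -227 in Psmc6 and -247 in Psmd12. It was present in 15.8% of the members with a window, in 17.04% of 10654 genes of the tables and in 13.99% of all 27025 genes with a window. The NF-Y box CCAAT was in 34.2% of the members against 43.4% of the genes of the tables, the GC box GGGCGG in 60.5% against 68.9%, and the TATA box TATAAA in 7.89% against 8.56%. These 4 motifs were not more frequent among the members than among the genes of the tables. The palindromic core of the site of nuclear respiratory factor 1, searched by its letters without mismatch, was in 2 members, Psma2 and Psmg1, or 5.26% against 2.27%.

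Proteasome genes were abundant in both cell types. Together they took 0.769 to 0.829% of the counts of each ESC library and 0.794 to 0.895% of each EpiLC library. Per kilobase of the main transcript, the median member stood at 113 CPM in ESC and 117 CPM in EpiLC vehicle libraries, and the median of all genes at 7.99 and 6.92 CPM. Levels are compared between genes on this scale only. Dividing by all exons of a gene instead gave a similar order of members (Spearman's rho = 0.88 in ESCs and 0.91 in EpiLCs). Single ranks below hold for the main transcript. Within the particle, the 31 subunits of the constitutive core and the regulatory particle spanned a 4.55-fold range in ESCs and a 5.11-fold range in EpiLCs.

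Alpha ring genes had a median of 150 CPM per kilobase in ESCs, from Psma8 at 13.9 ± 0.83 (SD, n = 3) to Psma6 at 238 ± 14.7. Psma8 encodes the alternative alpha subunit best known from meiotic germ cells. In EpiLCs Psma7, its ubiquitous counterpart, was the highest alpha gene at 334 ± 33.7, against 15.9 ± 0.66 for Psma8. Constitutive beta genes had a median of 163 CPM per kilobase in ESCs and 180 in EpiLCs. The catalytic subunit genes were unequal. Psmb6, the caspase-like site, stood at 236 ± 14.5 in ESCs and 365 ± 35.4 in EpiLCs. There it was the highest member per kilobase of the main transcript, but not per kilobase of all exons. Psmb7, the trypsin-like site, stood at 90.2 ± 4.19 and 112 ± 22.3. Psmb5, the chymotrypsin-like site that most proteasome inhibitors block, was the lowest constitutive beta gene in both cell types, at 53.7 ± 4.60 and 71.4 ± 7.69. This rank depends on the length used, since per kilobase of all exons Psmb7 and Psmb1 stood below Psmb5. A further measured limit is shared sequence. Of the 100-base stretches of the Psmb5 transcript, 24.9% occur in other annotated transcripts, and the figure is 19.98% for Psmb7 and 17.99% for Psmb3. Reads there may be lost, either in mapping or where exons of another gene overlap. Such overlap covers 12.1% of the exon bases of Psmb5 and 11.8% of those of Psmb7. The loss itself was not measured.

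The products of the inducible beta genes replace the catalytic subunits under interferon, and 1 of these genes had a row in ESCs. Psmb10 stood at 4.30 ± 0.55 CPM per kilobase of the main transcript in ESCs, the lowest member there on this scale, and at 30.5 ± 5.26 in EpiLCs. Psmb9 stood at 3.14 ± 0.57 in EpiLCs. Base genes were even among themselves, from Psmc2 at 106 to Psmc1 at 165 for the ATPases in ESCs and from Psmd1 at 116 to Psmd2 at 203 for the scaffold and receptor subunits. The lid spanned 76.6 for Psmd13 to 131 for Psmd7. The activators with the inhibitor, and the assembly factors, had lower class medians, of 48.2 and 22.6 in ESCs, although Psme3 and Psme4 stood above Psmd13. Psmf1, the inhibitor, stood at 9.43 and 11.3 CPM per kilobase in ESCs and EpiLCs, the nuclear activator Psme3 at 97.1 and 100.4, the assembly chaperone Psmg1 at 61.1 and 87.7, and Psmg3 at 4.74 and 10.3. For Psme2, 44.5% of the 100-base stretches occur in other transcripts, most of them in Psme2b.

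**Figure D1:**
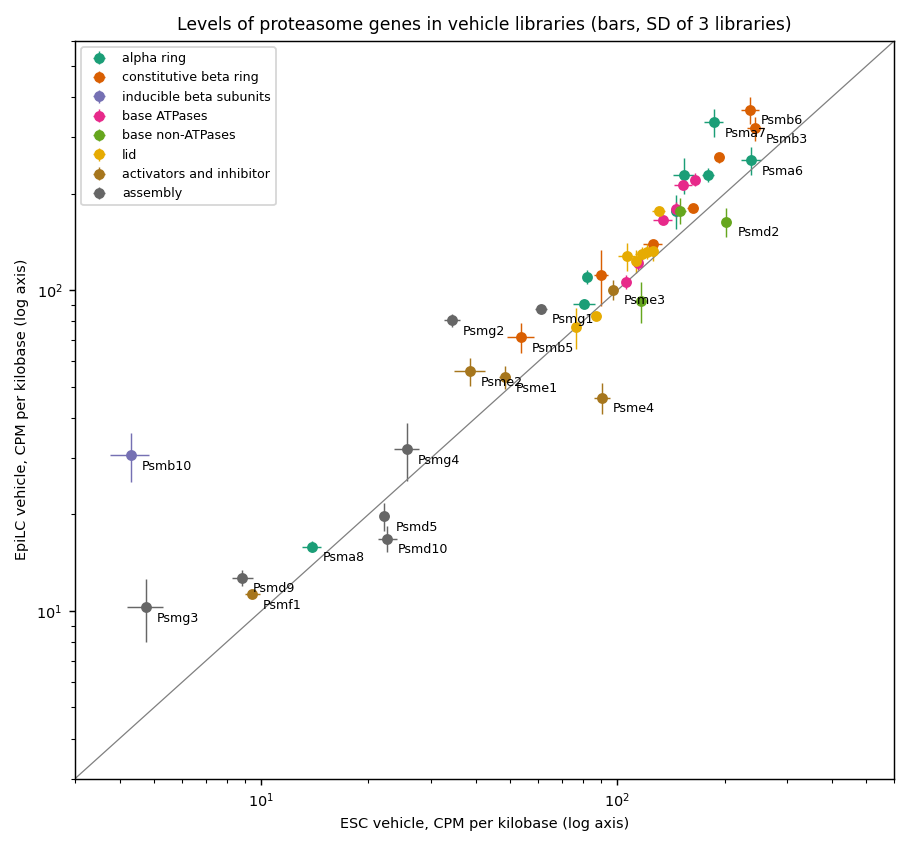
Level of each proteasome gene in ESC (horizontal) and EpiLC (vertical) vehicle libraries, in CPM per kilobase on log axes, with the mean of 3 libraries as a point, the SD as bars, the class as colour and the line of equality in grey. Most genes sit slightly above the line, Psmb10, Psmg2 and Psmg3 sit well above it, and Psme4 sits below it at 90.7 against 46.3.

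Between the cell types, 39 of the 45 genes in both tables were higher in EpiLC than in ESC vehicle libraries, with a median difference of 0.26 on the log2 CPM scale, against 6203 of 12410 genes and a median of -0.00014. The 2 tables were adjusted separately, so these are descriptions with no test. All 8 alpha, all 7 constitutive beta and all 6 ATPase genes were higher in EpiLCs, from 1.00-fold for Psmc2 to 1.79-fold for Psma7. Psmb10 was 7.10-fold higher, at 40.0 CPM against 5.64, Psmg2, an alpha ring assembly chaperone, 2.34-fold, and Psmg3 2.17-fold. Psme4, the nuclear activator that acts on histones, was 1.96-fold higher in ESCs, where its 3 vehicle libraries held 568, 626 and 573 CPM against 292, 338 and 272 in EpiLCs. Psmd10, an assembly chaperone also known as gankyrin, was 1.35-fold, Psmd1 1.25-fold and Psmd2 1.24-fold higher in ESCs. The order of the members by level was much the same in both cell types (Spearman's rho = 0.97 over 45 genes).

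In ESCs, Δ9-THC left the sum of the proteasome genes within the spread of the libraries. The vehicle libraries held 7665, 8000 and 8219 CPM in all members together, and the exposed libraries 8280, 7956 and 7774 CPM. Of 45 members, 24 had a higher and 21 a lower estimate with Δ9-THC, with a median log2 fold change of 0.01, against 48.9% lower and a median of 0.00 over all genes. At an adjusted p of at most 0.05 in edgeR, 3 members rose, Psma3, Psma8 and Psmc6, and 0 fell. This was 6.67% of the members, where 3.37% of all 13104 genes rose and 3.55% fell. DESeq2 called the same 3 genes and no other member. At an unadjusted p under 0.05, 6 members were higher (against 14.9% of all genes) and 4 were lower (against 13.8%), and these 10 became 5 without the vehicle or the exposed library numbered 2. With the library number as a block in the model these 10 became 4.

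Psma3, an alpha ring gene, held 229, 232.5 and 238 CPM in the vehicle and 261, 258 and 253 CPM in the exposed ESC libraries, a log2 fold change of 0.14 ± 0.03 (SE, adjusted p = 0.0395). All exposed libraries were above all vehicle libraries. Psmc6, an ATPase of the base, held 252.5, 255 and 258 CPM in vehicle and 285, 282 and 281 CPM in exposed libraries, a log2 fold change of 0.15 ± 0.02 (adjusted p = 0.0301). Its groups did not overlap, and their small spread is that of the adjusted counts. Psma8 held 25.0, 22.3 and 23.1 CPM in vehicle and 26.9, 30.3 and 29.4 CPM in exposed libraries, the largest increase of a member at 0.30 ± 0.06 (adjusted p = 0.0472). These calls were sensitive. With offsets that remove each library's trend with GC content and exon length, Psma3, Psmc6 and Psma8 had log2 fold changes of 0.02, 0.00 and 0.19. No member was called with the offsets, while 32 of 45 members had a lower estimate in place of 21. Leaving out any of the 6 libraries also left no member called.

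By class, all 8 alpha genes had an estimate above 0 in ESCs (median 0.08), with Psma4 at 0.11 ± 0.06 and Psma5 at 0.09 ± 0.04, and 6 of 7 constitutive beta genes one below 0 (median -0.09). Among the latter, Psmb2 held 134, 141 and 144 CPM in vehicle and 131, 125 and 122 CPM in exposed libraries, a log2 fold change of -0.15 ± 0.04 (adjusted p = 0.0654), without overlap. Psmb3 was at -0.10 ± 0.05, Psmb6 at -0.09 ± 0.06, Psmb5 at -0.07 ± 0.08 and Psmb7 at 0.03 ± 0.05. With the offsets, the alpha genes were split 5 to 3 with a median of 0.03 while all 7 beta genes were below 0, with a median of -0.08.

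The regulatory particle was mixed in ESCs. Of the 6 ATPases 4, and of the 8 lid genes 6, had estimates above 0. Psmd14, the deubiquitinase of the lid, was at 0.09 ± 0.03 (adjusted p = 0.106) and at -0.07 with the offsets. Psmd4, a ubiquitin receptor of the base, was at -0.11 ± 0.04 (adjusted p = 0.124), and the lid gene Psmd3 at -0.10 ± 0.03 (adjusted p = 0.0784). Of the activators and inhibitor 4 of 5 were below 0, with Psme1 at -0.09 ± 0.04, Psme4 at -0.04 ± 0.06, Psmf1 at -0.05 ± 0.05, Psme3 at -0.02 ± 0.03 and Psme2 at 0.01 ± 0.10. Assembly genes ranged from -0.14 ± 0.13 for Psmg3 to 0.11 ± 0.06 for Psmd10. Psmb10 was at -0.03 ± 0.13. The 3 exposed libraries did not overlap the 3 vehicle libraries in 7 members that were higher (15.6%, against 16.7% of all genes) and in 4 that were lower (8.89%, against 15.9%).

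**Figure D2:**
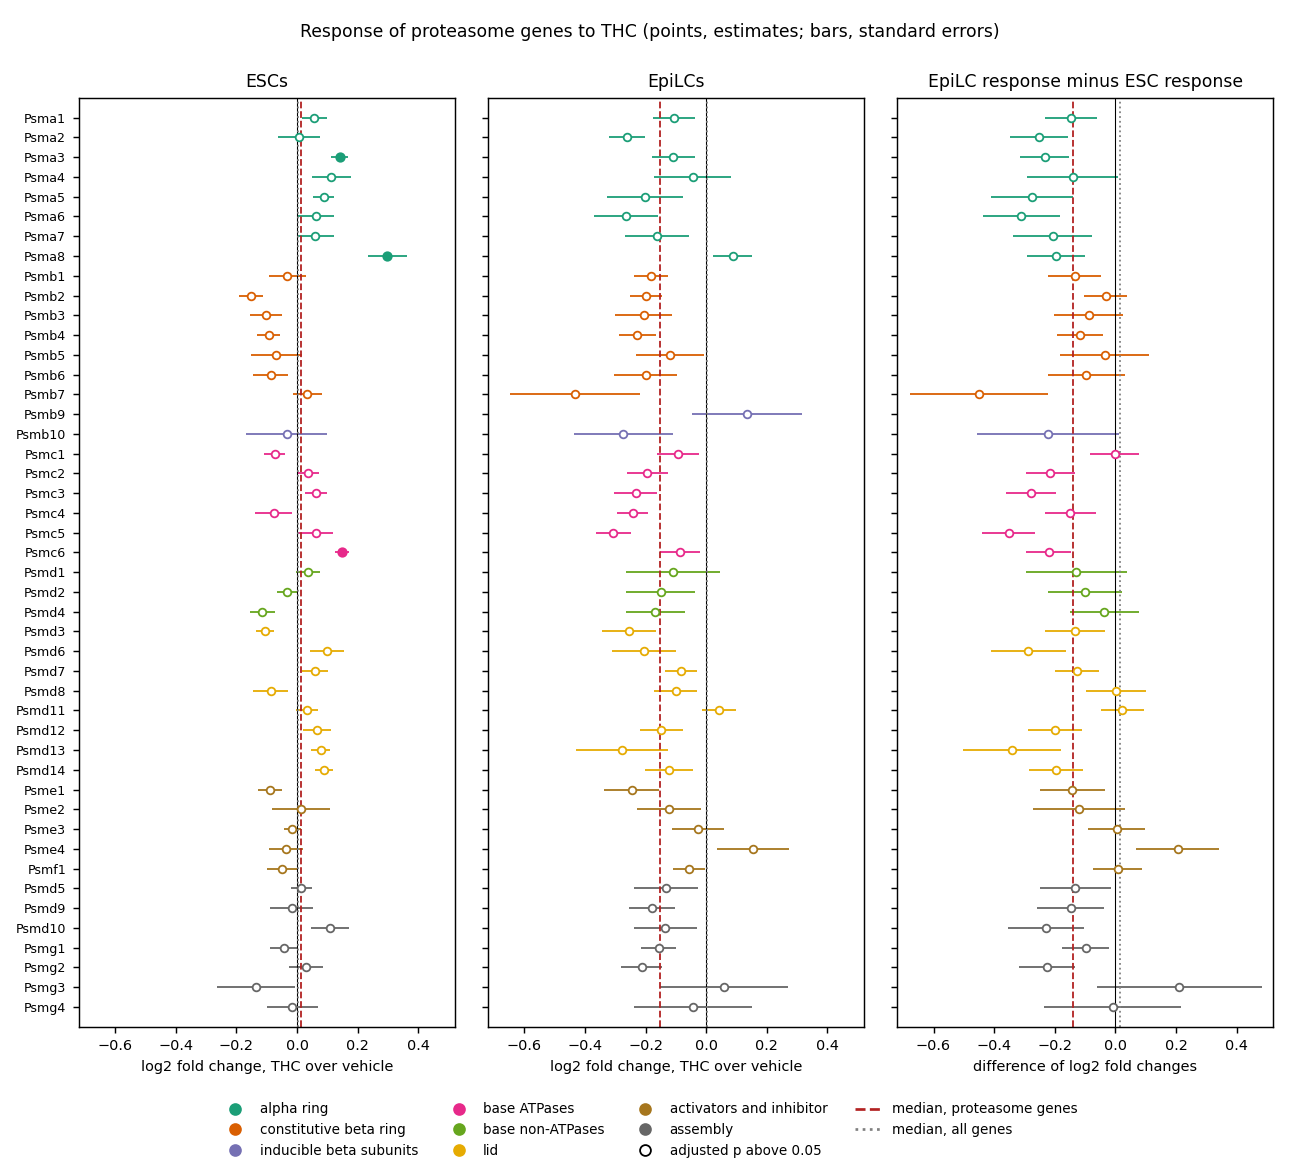
Log2 fold change of each proteasome gene with Δ9-THC in ESCs (left) and EpiLCs (middle), and the difference between them (right), as estimates with standard errors, coloured by class, filled where the adjusted p is at most 0.05. The ESC estimates lie on both sides of 0 with a median of 0.01 (dashed), those of EpiLCs mostly below 0 with a median of -0.15, and the medians of all genes (dotted) lie near 0.

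In EpiLCs most proteasome genes had lower estimates with Δ9-THC, and none passed the test. The sum of all members was 8774, 9024 and 8860 CPM in the vehicle libraries and 8079, 7886 and 8067 CPM in the exposed libraries. The groups did not overlap, and the mean of the exposed libraries was 90.2% of the vehicle mean. Of 46 members, 41 had an estimate below 0, with a median log2 fold change of -0.15, against 49.3% lower and a median of 0.00 over all genes. In edgeR 0 members had an adjusted p of at most 0.05, as had 0.00% of all 13717 genes, and the lowest adjusted p of a member was 0.144. At an unadjusted p under 0.05, 13 members were lower (28.3%, against 6.80% of all genes) and 0 were higher (against 8.28%). The count of 13 ranged from 8, without the vehicle or the exposed library numbered 3, to 17, without the exposed library numbered 2, and was 5 without both libraries numbered 3 and 26 without both numbered 2. With the library number as a block in the model it was 1, or 2 with the block and the offsets. The libraries did not overlap in 17 members that were lower (37.0%, against 10.6% of all genes) and in 0 that were higher (against 11.2%). DESeq2 called 1 member lower, Psmc5 (against 0.190% of all genes), and the edgeR fit of all 12 libraries 3, Psmc5, Psmc4 and Psmb4 (against 1.28% of genes in both tables). The count of members with lower estimates was 39 to 41 when each library was left out in turn, 37 to 39 when both libraries of a number were left out, an alternative chosen after seeing the data, and 40 with the offsets.

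All 6 base ATPases were below 0 in EpiLCs, with a median of -0.21 (-0.16 with the offsets). Psmc5 held 271, 284 and 286 CPM in vehicle and 233, 224.5 and 222 CPM in exposed libraries, a log2 fold change of -0.31 ± 0.06 (edgeR adjusted p = 0.144, DESeq2 adjusted p = 0.0182, adjusted p = 0.0266 in the fit of 12 libraries). Psmc4 held 236, 241 and 239 CPM in vehicle and 203, 201 and 202 CPM in exposed libraries, at -0.24 ± 0.05 (adjusted p = 0.165). Psmc3 was at -0.23 ± 0.07, Psmc2 at -0.19 ± 0.07, Psmc1 at -0.09 ± 0.07 and Psmc6 at -0.09 ± 0.07. In the first 4 of these genes, every exposed library was below every vehicle library. The class as a whole held 1590 to 1658 CPM with vehicle and 1406 to 1450 CPM with Δ9-THC.

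All 7 constitutive beta genes were below 0 in EpiLCs, with a median of -0.20, and their sum was 1394 to 1485 CPM with vehicle and 1197 to 1276 CPM with Δ9-THC. Psmb4 held 300, 301.5 and 320 CPM in vehicle and 266.5, 268 and 252 CPM in exposed libraries, at -0.23 ± 0.06 (adjusted p = 0.204). Psmb2 was at -0.20 ± 0.05 and Psmb1 at -0.18 ± 0.06, again without overlap. The catalytic genes were less even between libraries. Psmb7 held 112, 159 and 118 CPM in vehicle and 112, 69.2 and 107 CPM in exposed libraries. Its log2 fold change of -0.43 ± 0.21 (adjusted p = 0.399) was the lowest of all members, but the groups overlapped, and without the exposed or the vehicle library numbered 2 it was -0.26. Psmb6 was at -0.20 ± 0.10 and Psmb5 at -0.12 ± 0.11, the latter at 0.00 with the offsets. The inducible Psmb10 held 43.8, 32.1 and 44.2 CPM in vehicle and 29.9, 39.4 and 30.1 CPM in exposed libraries, at -0.27 ± 0.16, and Psmb9 was at 0.13 ± 0.18. Both overlapped between groups.

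Of 8 alpha genes 7 were below 0 in EpiLCs. Psma2 held 269, 269 and 254.5 CPM in vehicle and 215, 218 and 229 CPM in exposed libraries, at -0.26 ± 0.06 (adjusted p = 0.172). Psma6 was at -0.26 ± 0.11, Psma7 at -0.16 ± 0.11, Psma3 at -0.11 ± 0.07 and Psma4 at -0.04 ± 0.13. Psma8, at 0.09 ± 0.06, was the alpha gene above 0. In the lid and base, 10 of 11 genes other than the ATPases were below 0, from Psmd13 at -0.28 ± 0.15 through Psmd3 at -0.26 ± 0.09, Psmd4 at -0.17 ± 0.10, Psmd2 at -0.15 ± 0.11, Psmd14 at -0.12 ± 0.08, Psmd1 at -0.11 ± 0.15 and Psmd7 at -0.08 ± 0.05 to Psmd11 at 0.04 ± 0.06. The 3 base subunits other than ATPases overlapped between groups. In Psmd1 and Psmd2 the vehicle library numbered 2 was the highest of the 6 and the exposed library of that number the lowest, and without that vehicle or that exposed library the log2 fold change of Psmd1 was 0.01 in either case. The value of Psmd13 was -0.16 and -0.15 without the exposed or the vehicle library numbered 2.

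The activators differed from each other in EpiLCs. Psme4 held 292, 338 and 272 CPM in vehicle and 344, 291 and 368 CPM in exposed libraries, with the highest estimate of a member at 0.15 ± 0.12 (adjusted p = 0.584) and overlapping groups. Psme1, a subunit of the interferon-inducible activator, held 61.2, 54.1 and 63.6 CPM in vehicle and 48.5, 55.1 and 47.1 CPM in exposed libraries, at -0.25 ± 0.09 (adjusted p = 0.289). Its partner Psme2 was at -0.12 ± 0.11, Psme3 at -0.03 ± 0.08 and Psmf1 at -0.06 ± 0.05. The class held 680 to 768 CPM with vehicle and 688 to 787 CPM with Δ9-THC, with overlapping groups as in the non-ATPase base. Assembly genes held 345 to 352 CPM with vehicle and 310 to 315 CPM with Δ9-THC. Psmg2 was at -0.21 ± 0.07 and Psmg1 at -0.16 ± 0.06, both without overlap, Psmd10 at -0.13 ± 0.10 and Psmg3 at 0.06 ± 0.21.

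**Figure D3:**
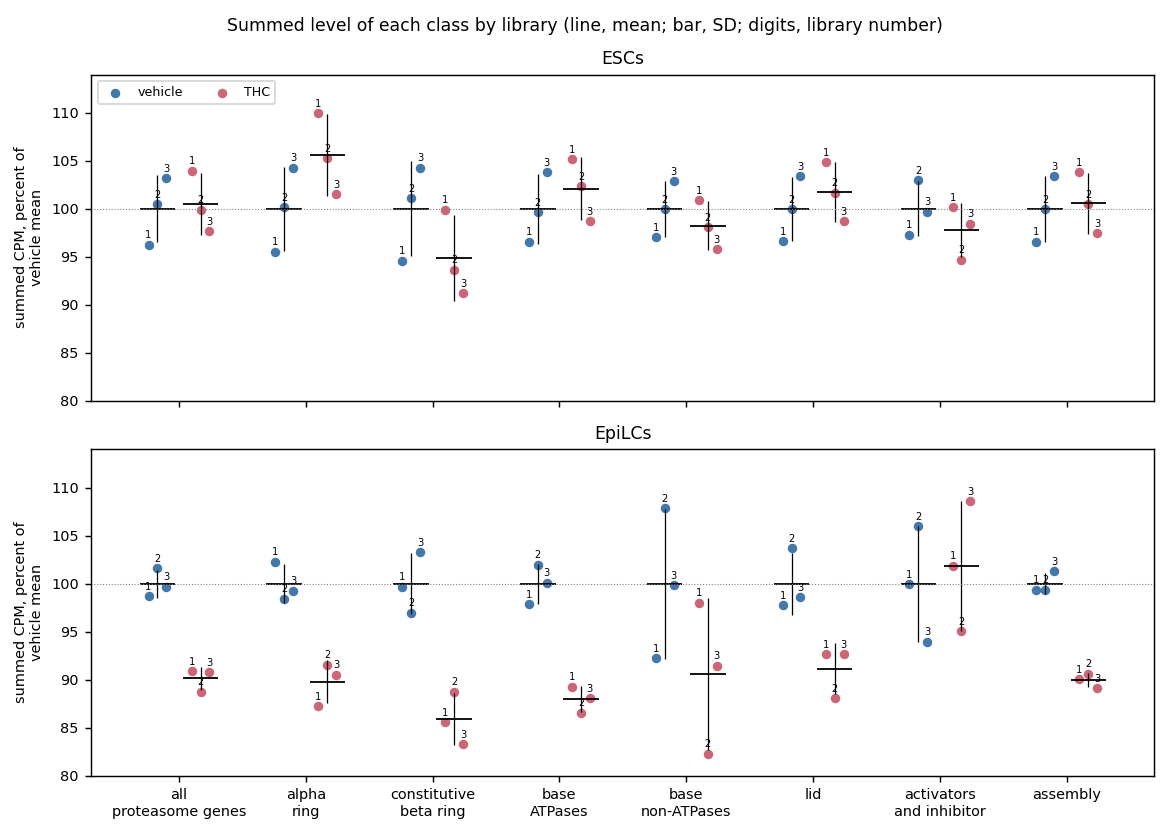
Summed CPM of all members and of each class except the inducible beta subunits, as percent of the vehicle mean of that set and cell type. Each library is a point with its number beside it, for ESCs (top) and EpiLCs (bottom), with vehicle in blue, Δ9-THC in red, the mean as a line and the SD as a bar. In ESCs the groups overlap in every set shown, and in EpiLCs the exposed libraries of all members together sit below all vehicle libraries.

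**Figure D4:**
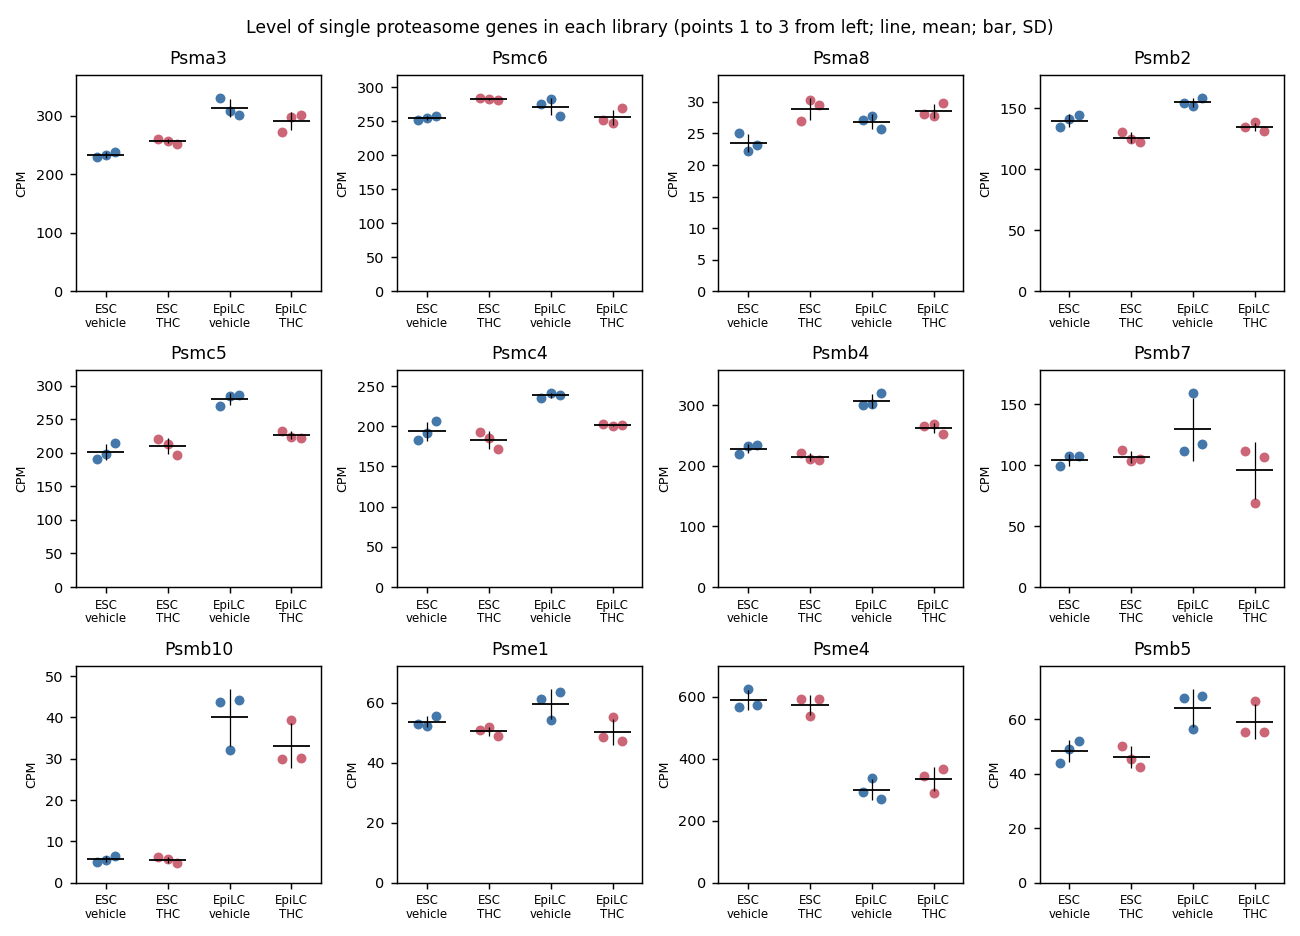
CPM of 12 proteasome genes in each of the 12 libraries, 3 per group, in the order of the library numbers, with the mean as a line and the SD as a bar. Psma3, Psmc6 and Psma8 are higher in all exposed ESC libraries, Psmc5, Psmc4 and Psmb4 lower in all exposed EpiLC libraries, and Psmb7 in EpiLCs is spread by the libraries numbered 2.

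The response in EpiLCs minus that in ESCs was negative for 39 of 45 members in the edgeR model of 12 libraries, with a median of -0.14 against 0.01 over all genes, and 0 members passed an adjusted p of at most 0.05 (against 0.0322% of 12410 genes). At an unadjusted p under 0.05, 11 members were lower in this difference (24.4%, against 4.83% of all genes) and 0 were higher (against 1104 of 12410 genes). The count of 11 became 4 with the offsets and 5 without the vehicle or the exposed ESC library numbered 1, and ranged up to 15 with other libraries left out. With the library number as a block in the model it became 1, and 0 with the block and the offsets. Psmc5 had the lowest adjusted p, with a difference of -0.35 ± 0.09 (adjusted p = 0.118 in edgeR and 0.0238 in DESeq2). Psma3 was at -0.23 ± 0.08 (adjusted p = 0.237) and Psmc6 at -0.22 ± 0.07 (adjusted p = 0.225). Psma8, at -0.20 ± 0.10, was above 0 in both cell types. Psme4 was at 0.21 ± 0.14 and Psmg3 at 0.21 ± 0.27. A difference between the cell types was thus not established for any member by edgeR. With the offsets, 37 of 45 members were negative, with a median of -0.10.

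Other measures were read beside these differences. The log2 fold change over all genes in ESCs fell with the GC content of the transcripts (Spearman's rho = -0.55 over 13083 genes) and did so among the members (rho = -0.58 over 45 genes). Alpha genes had a median GC content of 45.6% and constitutive beta genes one of 51.3%. In EpiLCs rho was -0.31 over all genes and -0.14 over the 46 members. With the offsets rho among members was 0.19 in ESCs and 0.29 in EpiLCs. Genes of one library share its composition and are not independent points, so no p is given. The summed level of Pou5f1 and Sox2 was 725 to 783 CPM in vehicle and 666 to 716 CPM in exposed ESCs, and 448 to 474 and 406 to 435 CPM in EpiLCs. The 2 genes did not move together. Mean Pou5f1 was 372.5 CPM with vehicle and 316.2 CPM with Δ9-THC in ESCs, and 367.4 and 313.7 CPM in EpiLCs. Mean Sox2 was 377.7 and 381.2 CPM in ESCs, and 92.3 and 107.9 CPM in EpiLCs. Naive markers in EpiLCs summed to 309 to 338 CPM with vehicle and 333 to 365 CPM with Δ9-THC, and EpiLC markers to 1741 to 2072 and 1775 to 2107 CPM. The part of these measures in the proteasome values was not tested.

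**Figure D5:**
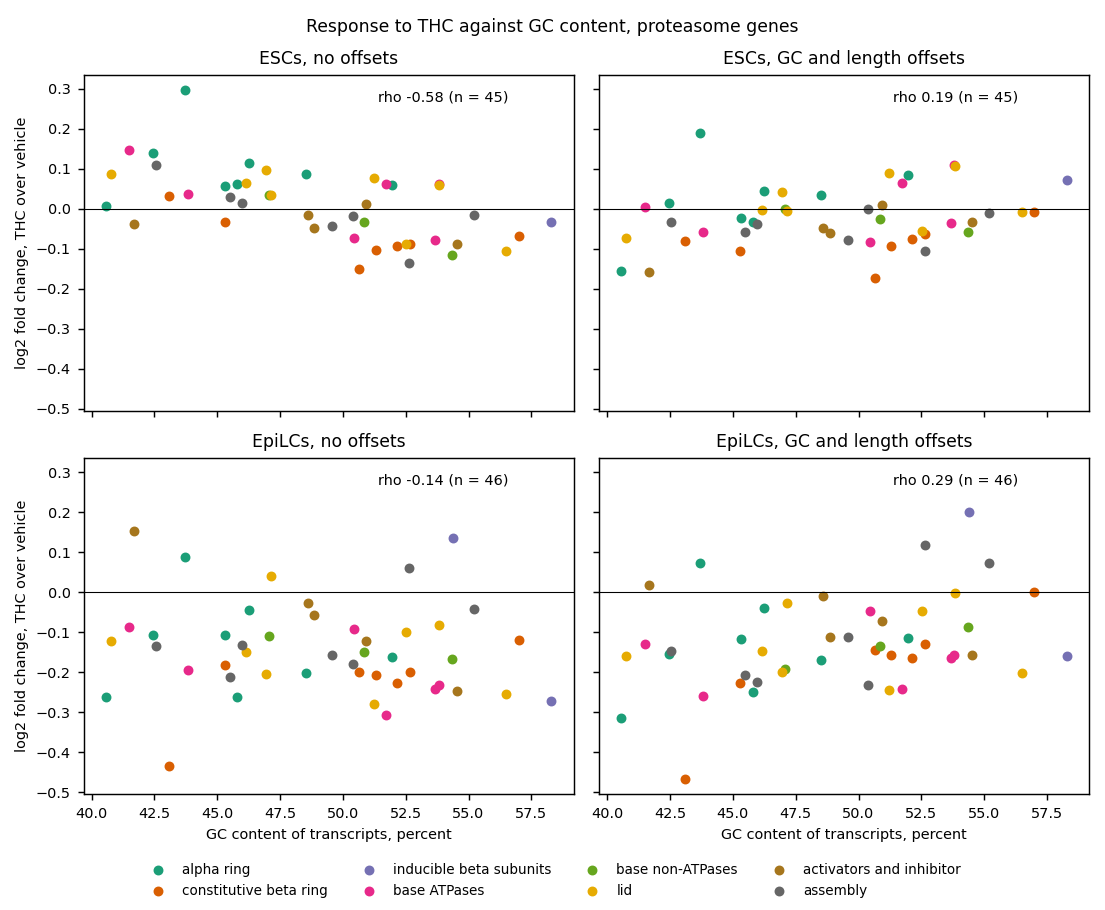
Log2 fold change of each proteasome gene with Δ9-THC against the GC content of its transcripts in percent, for ESCs (top) and EpiLCs (bottom), without (left) and with (right) offsets for GC content and length, coloured by class. The downward slope in ESCs (rho = -0.58) is absent with the offsets (rho = 0.19), and the EpiLC estimates stay mostly below 0 in both panels.

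Genes around the proteasome were read from fixed lists of 43 genes in all. In EpiLCs edgeR and DESeq2 called 0 of the 42 with a row, with 1 higher and 3 lower at an unadjusted p under 0.05 (against 8.28% and 6.80% of all genes), and in ESCs no gene of the table was called once the offsets were used. Of 11 partners that are not named Psm, 10 had a row in both tables. Usp14, a deubiquitinase on the particle, rose in ESCs by 0.16 ± 0.03 on the log2 scale (adjusted p = 0.0331) and Txnl1, a thioredoxin bound to it, by 0.14 ± 0.02 (adjusted p = 0.0309). With the offsets these values were 0.02 and -0.00033. In EpiLCs 5 partners were above and 5 below 0. The ubiquitin receptor Adrm1 was at -0.29 ± 0.07, and Pomp, the core maturation factor, at -0.11 ± 0.14. Of 10 regulators of proteasome transcription, edgeR and DESeq2 called 0 in either cell type, with 3 higher and 2 lower at an unadjusted p under 0.05 in ESCs (against 14.9% and 13.8% of all genes) and 0 in EpiLCs. Nfe2l1 was at -0.14 ± 0.04 in ESCs and -0.06 ± 0.08 in EpiLCs, and Vcp, the segregase that extracts it from the membrane, at 0.04 ± 0.04 and -0.17 ± 0.09.

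Among 11 ubiquitin supply and shuttle genes, the activating enzyme Uba6 (0.23 ± 0.04) and the shuttle Rad23b (0.11 ± 0.02) rose on the log2 scale in ESCs, with edgeR adjusted p-values of 0.0356 and 0.0489. The DESeq2 adjusted p-values were 0.0067 and 0.0803, so DESeq2 did not call Rad23b. With the offsets the log2 fold changes were 0.04 and 0.06. In EpiLCs 8 of the 11 were below 0. Of the interferon and antigen-processing genes, 9 had a row in ESCs, of which 6 were below 0 (median log2 fold change -0.20, or -0.15 using the offsets), and 11 in EpiLCs, of which 6 were below 0 (median -0.01, or 0.03 using the offsets). In ESCs 1 of the 9 was higher and 2 were lower at an unadjusted p under 0.05 (against 14.9% and 13.8% of all genes). The transcription factor Irf1 rose by 0.22 ± 0.05 (edgeR adjusted p = 0.0455, DESeq2 adjusted p = 0.119), and H2-K1, a class I antigen gene, was at -0.46 ± 0.12 (edgeR adjusted p = 0.0639, DESeq2 adjusted p = 0.0164) and Tap1, the peptide transporter gene next to Psmb9, at -0.53 ± 0.20 (edgeR adjusted p = 0.142). Tap1 held 1.45 ± 0.21 CPM in ESC and 12.9 ± 1.80 CPM in EpiLC vehicle libraries, and H2-K1 15.7 ± 1.76 and 84.7 ± 13.9 CPM, so that both were higher in EpiLCs, as was Psmb10. Nlrc5, a transactivator of such genes, had a row in EpiLCs alone, at 0.65 ± 0.22 CPM. The 6 members with a TGACNNNGC match had a median response of -0.03 in ESCs and -0.13 in EpiLCs, and the members with a window but no match one of 0.01 and -0.14.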

How the data were processed

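RNA-seq libraries were made from poly(A) RNA with either of a pair of kits, which are not named by library. The authors aligned paired reads with STAR, counted unique reads over exons with HTSeq without strand, removed genes with low counts and adjusted the counts with ComBat-seq for batches that are not named. The deposited tables, a separate one per cell type, hold these adjusted counts, not scaled for library size. Both mm10 and GRCm39 are given as the genome in the methods, and positions printed here are from GRCm38.

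All 12 columns were matched to libraries by label, with 0 left over. The PGCLC samples were not analysed here. Δ9-THC was compared with vehicle, 3 against 3 libraries, in each table with the quasi-likelihood test of edgeR 4.0.16 in R 4.3.3 (TMM scaling, genes with over 10 counts in all, Benjamini-Hochberg adjustment over all genes, threshold 0.05), and the cell types by an interaction over 12 libraries and 12410 genes. The standard error is the one the F statistic implies. Library totals were 23427551 to 32096698 counts. CPM values are TMM-scaled within a table. Lengths and GC content came from GENCODE release 21 transcripts. For CPM per kilobase the length of the main transcript was used, and for the offsets the combined length of all exons of a gene. Genes were named where called, where among the 5 largest increases or decreases of a cell type, where highest or lowest of a class per kilobase, and always for catalytic, inducible, activator and inhibitor genes, Psmd4 and Psmd14. Other members named were chosen after their values were seen. Members and lists were chosen with earlier results of these data known. Protein sequences were not used here. A result of the fixed lists is not reported here. Alternatives were RLE scaling, other filters (none, or a minimum of 10 counts per library), a replicate block, GC and length offsets (splines of 5 degrees of freedom per library), both, DESeq2 1.42.0, a fit of 12 libraries, each library left out, and, chosen after seeing the data, both libraries of a number left out. The fits were tested on simulated counts drawn independently for each library. That test cannot speak to libraries tied by number, as the adjusted ones are.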

Additional observations from a re-analysis of the deposited data

How the results depend on the processing

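In ESCs, 906 genes and 3 members were called, and both counts held with RLE scaling, either other filter and DESeq2 (759 genes at the fewest, 3 members). With the GC and length offsets 0 genes and 0 members were called, and with the fit of 12 libraries 31 and 0. With each library left out in turn 0 to 1 genes and 0 members were called, with fewer libraries in each fit. With both libraries of a number left out, 1757 genes and 5 members were called without those numbered 1, and 0 and 0 without those numbered 2 or 3. Members with a lower estimate in ESCs numbered 32 with the offsets and 12 without the libraries numbered 3, in place of 21. The cause of these shifts was not tested.

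Deviations of same-numbered vehicle and Δ9-THC libraries from their group means correlated at r = -0.987 to -0.977 in all 6 pairs. The libraries are thus tied by number, in opposite directions. These correlations were taken after the adjustment, so they cannot tell whether the libraries were matched pairs before it. The results above come from the fit without the block, as planned. Whether the number was a batch in the authors' adjustment is not given, and the p-values with and without the block are both uncertain. With the replicate block, 5 genes and 0 members were called in ESCs, 0 and 0 in EpiLCs and 0 and 0 for the difference between them, and with the block and the offsets 1, 0 and 0 genes and 0 members, with 32 members lower in ESCs. At an unadjusted p under 0.05 the members numbered 4 in ESCs (10 without the block), 1 in EpiLCs (13) and 1 for the difference (11), and 2, 2 and 0 with block and offsets. No library correlated best with its own number.

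In EpiLCs 0 genes were called except with DESeq2 (87 genes, 1 member) and in the fit of 12 libraries (411 genes, 3 members), where the spread is shared with the ESC libraries. The median log2 fold change of the members ranged from -0.177 to -0.151 with a library left out and was -0.179 without both libraries numbered 2, and remained between -0.156 and -0.147 in the other fits. For the difference between the cell types, 4 genes were called, 20 with the offsets, 133 with DESeq2 (1 member) and 0 with any library left out.

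Of the members named by rule, 31 in ESCs and 32 in EpiLCs, 25 of 434 values in ESCs and 13 of 447 in EpiLCs changed sign, 30 lost and 2 gained a call. Members named after their values were seen, such as Psmc4 and Psmb4, are outside these counts and outside the sign changes listed next. The sign changed with the offsets, without and with the block, in ESCs for Psma6 (-0.0323, -0.0323), Psmb7 (-0.0813, -0.0814), Psmb10 (0.0719, 0.0686), Psmc2 (-0.0584, -0.0585), Psmd1 (-0.00105, -0.00108), Psmd10 (-0.0316, -0.0319), Psmd11 (-0.00494, -0.005) and Psmd14 (-0.0734, -0.0734), and in EpiLCs for Psmb5 (0.00159, 0.00187) and Psmd11 (-0.0266, -0.0267). It changed for Psme2 in ESCs in the fit of 12 libraries (-0.0036). With each library left out in turn the estimate crossed 0 in EpiLCs for Psma4 (-0.165 to 0.0197), Psmd1 (-0.229 to 0.0105), Psme3 (-0.0871 to 0.0233) and Psmg3 (-0.131 to 0.198), and in ESCs for Psmb7 (-0.00387 to 0.0561), Psmb10 (-0.117 to 0.0663), Psme2 (-0.0575 to 0.085) and Psme4 (-0.0609 to 0.0104).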
